A study of Mus musculus with 8 samples.

Results

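Interferon signaling and antigen presentation by MHC class I (major histocompatibility complex class I) were examined in the brain cortex through 8 genes, Stat2, Stat3, Ifitm3, Bst2, Ifi27, B2m, H2-K1 and H2-D1. They were taken by symbol from a table of 13996 genes, where each had 1 entry with values in all 8 mice. The mice were C57BL/6 males, bought at 8 weeks of age and 16 weeks old at the end. For 8 weeks, 4 of them received a normal diet and the other 4 a diet with 60% fat by weight, and the second group is called high fat diet fed. RNA of each cortex was depleted of rRNA, made into 1 stranded library per mouse and sequenced from both ends, so the 4 values of a diet are separate mice. The study asked how this diet alters the RNA profile of the cortex. Levels are in FPKM, fragments counted per unit of transcript length and of sequencing depth, which lets genes be compared with each other. Differences are given on the scale log2(FPKM + 0.1) as high fat diet minus normal.

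Interferons bind receptors whose JAK kinases phosphorylate STAT proteins. Stat2 and Irf9 belong to the complex that binds interferon-stimulated response elements (ISREs), while Stat3 mainly carries signals of interleukin 6 family cytokines. Ifitm3 and Bst2 encode membrane proteins that restrict entry and release of viruses, and Ifi27 encodes a small interferon-induced membrane protein of mitochondria and nuclear envelope. H2-K1 and H2-D1 encode classical class I heavy chains, which reach the cell surface with a peptide and the light chain beta-2 microglobulin, the product of B2m. In the brain these proteins are best known from blood vessel cells and microglia, and they have also been studied in neurons for a part in shaping synapses.

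The promoters are shown first because the members are grouped by their known regulation by interferon. RefSeq promoter windows (GRCm38.p6, 250 bases before to 50 after a transcription start) were found for 7 of the 8 members, Ifi27 being the one without an entry. The ISRE core was searched on both strands as GAAA and GAAA separated by 2 bases. It occurred in windows of 4 members, B2m, Stat2, Bst2 and Ifitm3, and in 3.44% of all 32851 windows, or 3.99% of 27025 genes. B2m is the member with a difference past the test below, and the 250 bases before its start (chr2:122147437-122147686, plus strand) follow with the core in capitals, 139 bases before the start.
B2m: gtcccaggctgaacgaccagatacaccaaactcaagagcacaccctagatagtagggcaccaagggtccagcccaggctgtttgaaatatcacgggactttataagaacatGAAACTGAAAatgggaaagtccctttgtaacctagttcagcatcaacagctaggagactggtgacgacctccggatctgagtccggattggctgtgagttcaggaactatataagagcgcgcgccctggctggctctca

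The other cores are compared in stretches of 30 bases, each on the strand of its gene, again with the core in capitals. That of Stat2 (chr10:128270266-128270295, plus strand) lay 222 bases before the start and reads as an ISRE core on the opposite strand. Bst2 (chr8:71537580-71537609, minus strand) held overlapping cores 130 and 124 bases before its start, and Ifitm3 (chr7:141010715-141010744, minus strand) held cores 2 and 19 bases after it.
Stat2: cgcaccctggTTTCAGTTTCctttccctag
Bst2: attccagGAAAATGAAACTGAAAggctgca
Ifitm3: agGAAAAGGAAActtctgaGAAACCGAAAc

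H2-K1 and H2-D1 held no core of this spacing in their windows. Both held AAGTGAAA, letters chosen after the sequences had been seen, on the strand opposite to the gene, and these letters occurred in 526 of all 32851 windows and 1.91% of genes. They are in capitals in the stretches below, 90 bases before the start of H2-K1 (chr17:34000419-34000448, minus strand) and 150 before that of H2-D1 (chr17:35262933-35262962, plus strand). The GENCODE annotation places the stretch of H2-D1 within an exon of a transcript that starts earlier. The stretches were identical at 29 of 30 bases, the difference being A8T with H2-K1 first and positions counted from the 5′ end.
H2-K1: catctccacagTTTCACTTctgcacctaac
H2-D1: catctcctcagTTTCACTTctgcacctaac

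A second known element, the gamma-activated sequence to which STAT dimers bind, was searched as TTC and GAA 3 bases apart. Such a match was present in Bst2, 136 bases before the start, and in Ifitm3, 13 bases after it, in each case overlapping an ISRE core. These letters are common, with a match in 8.30% of windows and 9.55% of genes.

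The whole table sets the background. The FPKM of a mouse summed to between 562431 and 639142, and the median log2 difference over 13982 genes tested was 0.003. By limma with Benjamini-Hochberg adjustment over all genes tested, 4626 genes, or 33.1%, passed an adjusted p of 0.05, 15.3% being lower and 17.7% higher on the high fat diet. A change of more than 50% was also present in 7.13%, and the 4 values of one diet did not overlap those of the other in 31.9%. Markers of cortical excitatory neurons, 9 of 9 with values, were present in every mouse, with summed levels of 302 to 449.6 FPKM in normal mice and 496 to 585.9 in high fat diet fed mice. Striatum markers (8 of 9 with values) summed to 208.9 to 383.2 FPKM in normal mice and 59.9 to 69.8 on the high fat diet, and thalamus markers (7 of 7) to 68.6 to 197.1 and 53.1 to 57.1. Oligodendrocyte markers (10 of 10) summed to 2146 to 3536.7 and 1482.2 to 2059.5 FPKM. By the test, 7 cortical neuron markers rose, and 8 striatum, 2 thalamus and 10 oligodendrocyte markers fell. The sums of these 4 lists did not overlap between diets, so the regions and cells present in a sample and the diet cannot be told apart. In bulk tissue, fewer cells of a type and less RNA per cell cannot be told apart either.

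Of the 8 members, 1 passed the test, B2m, which fell. That share of 12.5% was below the 33.1% of all genes tested. By sign, 7 of 8 were lower in high fat diet fed mice, with a median log2 difference of -0.18, where 49.4% of all genes tested were lower. An unadjusted p under 0.05 was present in 4 of 8 (B2m, Stat3, H2-D1 and Bst2) and in 44.3% of all genes tested, so that the 4 are near the background. None changed by more than 50%, and for 8 of 8 the 95% interval of the log2 difference lay within 0.585 of 0, which is a change of 1.5-fold. B2m was also the member without overlap between diets, 1 of 8, beside 31.9% of all genes tested.

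**Figure D1:**
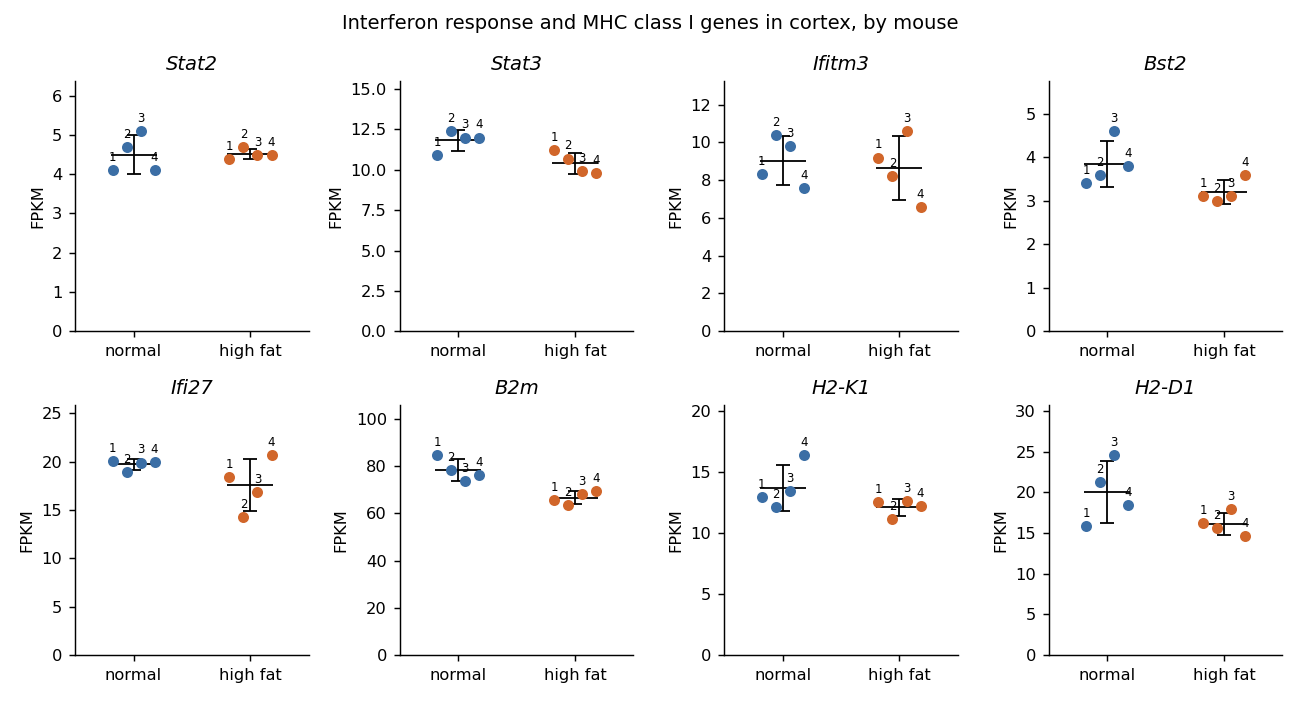
FPKM of the 8 members in each cortex, with normal mice in blue, high fat diet fed mice in orange, the mouse number above each point, and a line and bars for the mean ± SD of 4 mice; every axis starts at 0. For B2m all 4 normal mice (73.9 to 84.9) sit above all 4 high fat diet fed mice (63.6 to 69.5), and for the other members the diets overlap.

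B2m encodes the light chain shared by all class I molecules. Its levels were 84.9, 78.6, 73.9 and 76.2 FPKM in normal mice 1 to 4 and 65.6, 63.6, 68.2 and 69.5 FPKM in high fat diet fed mice 1 to 4. Every high fat diet fed mouse was below every normal mouse. The mean fell from 78.4 ± 4.74 to 66.7 ± 2.64 FPKM (SD, n = 4 each), to 85.1% of the normal mean. The log2 difference was -0.23 (standard error 0.053, 95% interval -0.35 to -0.11, limma adjusted p = 0.00989). The gene (ENSMUSG00000060802.8, chr2:122147686-122153083, plus strand of GRCm38) overlaps the span of Patl2 on the other strand without sharing exonic bases. In no stretch of 100 bases did its transcripts match those of another gene.

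The call of B2m was kept in each of the 8 fits that left out 1 mouse, with adjusted p between 0.0109 and 0.033. Normal mice 2 and 3 carried the highest cerebellum markers (8 of 10 with values, sums of 223.8 and 311.4 FPKM against 17.9 to 22.4 in high fat diet fed mice, 4 markers being lower by the test). Without these 2 mice B2m differed by -0.27 (adjusted p = 0.0213), and with the cerebellum markers as a covariate by -0.34 (adjusted p = 0.0315, limma). Endothelial markers (14 of 14 with values) summed to 163.4 to 181.7 FPKM in normal mice and 156.7 to 174.6 in high fat diet fed mice, none being at 0. Of the 14, 4 fell and 1 rose by the test, a share of 35.7% that is near the 33.1% of all genes tested. The values of 6 did not overlap between diets, beside 31.9% of all genes tested. Named after their values were seen, those that fell were Cldn5 (to 76.1% of the normal mean), Tie1 (79.2%), Slco1a4 (79.6%) and Abcb1a (87.2%), and Ly6c1 rose (117.2%). With that list as a covariate the difference was -0.19 and no longer passed (adjusted p = 0.0989). Its standard error was 0.071, against 0.053 with diet alone, and 14.9% of all genes tested passed in that fit. Choroid plexus markers (8 of 9 with values) summed to 348.2 to 738.2 FPKM in normal mice and to 80.1, 23.5, 29.5 and 955.3 FPKM in high fat diet fed mice, with 3 of 8 lower by the test. As a covariate they left B2m at -0.18 (standard error 0.072, adjusted p = 0.142), in a fit where 7.28% of all genes tested passed. Microglia markers (14 of 15 with values) summed to 243.3 to 284.9 and 253.1 to 267.9 FPKM. By the test none of 14 was lower and 2 were higher, and with them as a covariate B2m still passed. That covariate, their mean centered log2 level, was -0.143 to 0.129 in normal mice and -0.024 to 0.045 in high fat diet fed mice. It hardly differed between diets, so adjusting for it could remove little of a diet difference.

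H2-D1 is a classical heavy chain that pairs with the B2m product. Its levels were 15.8, 21.3, 24.6 and 18.4 FPKM in normal mice and 16.2, 15.6, 17.9 and 14.6 FPKM in high fat diet fed mice. Normal mouse 1 lay among the high fat diet fed mice, and the diets overlapped. The means were 20.02 ± 3.79 and 16.1 ± 1.38 FPKM, with a log2 difference of -0.30 (standard error 0.124, 95% interval -0.58 to -0.02, limma adjusted p = 0.0907). Both highest values came from normal mice 2 and 3, the 2 with the highest cerebellum markers. With cerebellum markers as a covariate the sign turned, to 0.10 (adjusted p = 0.656), and without those 2 mice the difference was -0.09 (adjusted p = 0.537). Without normal mouse 1 it was -0.41 and passed (limma adjusted p = 0.0185). The transcripts of H2-D1 (chr17:35262730-35267499, plus strand) shared 93 of 2275 stretches of 100 bases, or 4.09%, with 9 other genes, most often H2-Q1, so reads of these stretches could be assigned to either gene.

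**Figure D2:**
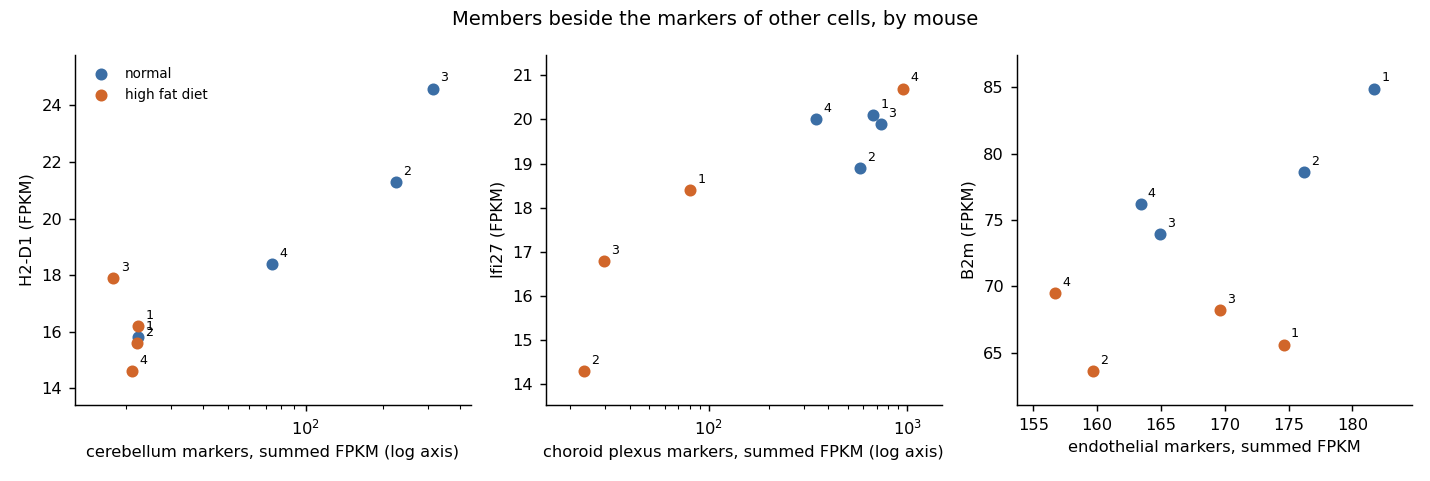
FPKM of H2-D1, Ifi27 and B2m in each mouse plotted against the summed FPKM of cerebellum, choroid plexus and endothelial markers (the first 2 on log axes), with normal mice in blue, high fat diet fed mice in orange and mouse numbers beside the points. H2-D1 was highest in normal mice 2 and 3 (21.3 and 24.6 FPKM), which had the highest cerebellum sums, and Ifi27 was highest in high fat diet fed mouse 4 (20.7 FPKM), which had the highest choroid plexus sum (955.3 FPKM).

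H2-K1 is the other classical heavy chain of this strain. It measured 12.9, 12.1, 13.4 and 16.4 FPKM in normal mice and 12.5, 11.1, 12.6 and 12.2 FPKM in high fat diet fed mice. The diets overlapped, and normal mouse 4 was the one that stood above the rest. Means were 13.7 ± 1.88 and 12.1 ± 0.688 FPKM, a log2 difference of -0.17 (95% interval -0.37 to 0.03, limma adjusted p = 0.177). H2-K1 passed in none of 22 alternatives, although its difference was -0.26 with endothelial markers as a covariate (adjusted p = 0.165) and -0.27 without both normal mice highest in cerebellum markers (adjusted p = 0.102). Its gene lies at chr17:33996017-34000347 on the minus strand, and its transcripts shared no stretch of 100 bases with other genes.

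Light and heavy chains were also compared with each other, since they form 1 molecule. The sum of H2-K1 and H2-D1 was 28.7, 33.4, 38 and 34.8 FPKM in normal mice and 28.7, 26.7, 30.5 and 26.8 FPKM in high fat diet fed mice. As a share of B2m this was 43.3% ± 7.36 under the normal diet against 42.3% ± 2.71 under the high fat diet (SD, n = 4). The normal mice spanned 33.8% to 51.4%, which held all values of the other diet, 38.6% to 44.7%. B2m RNA was therefore above the summed RNA of H2-K1 and H2-D1 in every mouse of both diets. Other class I heavy chains were not part of this sum.

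Stat3 was measured at 10.9, 12.4, 12 and 12 FPKM in normal mice and at 11.2, 10.7, 9.9 and 9.8 FPKM in high fat diet fed mice. In 3 high fat diet fed mice it was below the lowest normal mouse, while high fat diet fed mouse 1 was above normal mouse 1. The means were 11.8 ± 0.645 and 10.4 ± 0.668 FPKM, and the log2 difference of -0.18 (standard error 0.064, 95% interval -0.33 to -0.04) had an unadjusted p of 0.0174 and an adjusted p of 0.0520 (limma), just outside the threshold. The adjusted p was 0.0309 when normal mouse 1 was left out and 0.0432 when high fat diet fed mouse 1 was, with -0.22 both times. With cerebellum markers as a covariate the difference was -0.08 (adjusted p = 0.646). Stat3 (chr11:100885098-100939540, minus strand) shares 72 exonic bases with Stat5a on the other strand, and the sources used here do not say whether counting used strand.

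Stat2, the STAT particular to type I and type III interferon signaling, was measured at 4.1, 4.7, 5.1 and 4.1 FPKM in normal mice and 4.4, 4.7, 4.5 and 4.5 FPKM in high fat diet fed mice. All 4 high fat diet fed mice lay inside the range of the normal mice. The means were 4.5 ± 0.490 and 4.53 ± 0.126 FPKM, the log2 difference was 0.01 and its 95% interval ran from -0.18 to 0.21 (limma adjusted p = 0.917). Its sign depended on the setting, from -0.03 to 0.23.

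Ifitm3 restricts the entry of enveloped viruses at endosomal membranes. Its levels were 8.3, 10.4, 9.8 and 7.6 FPKM in normal mice and 9.2, 8.2, 10.6 and 6.6 FPKM in high fat diet fed mice. The lowest and the highest of the 8 values both belonged to high fat diet fed mice. The means were 9.03 ± 1.30 and 8.65 ± 1.68 FPKM, with a log2 difference of -0.07 (95% interval -0.40 to 0.26, limma adjusted p = 0.738). The sign turned in 5 alternatives, among them to 0.05 without high fat diet fed mouse 4 and to 0.13 and 0.14 with cerebellum and endothelial markers as covariates, while choroid plexus markers moved it to -0.26 (adjusted p = 0.402), and Ifitm3 passed in none of 22.

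Bst2 encodes tetherin, which holds budding viruses at the cell surface. It measured 3.4, 3.6, 4.6 and 3.8 FPKM in normal mice and 3.1, 3.0, 3.1 and 3.6 FPKM in high fat diet fed mice. High fat diet fed mice 1 to 3 were below every normal mouse, and mouse 4 was level with normal mouse 2. The means were 3.85 ± 0.526 and 3.2 ± 0.271 FPKM, a log2 difference of -0.25 (standard error 0.109, 95% interval -0.50 to -0.01) with an unadjusted p of 0.0428 and an adjusted p of 0.10 (limma). As covariates, cerebellum markers moved it to -0.04 (adjusted p = 0.911), choroid plexus markers to -0.12 (0.631) and endothelial markers the other way, to -0.40 (0.0691).

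Ifi27 was measured at 20.1, 18.9, 19.9 and 20 FPKM in normal mice and at 18.4, 14.3, 16.8 and 20.7 FPKM in high fat diet fed mice. The normal mice were close together, while the high fat diet fed mice held both the lowest 3 values and the highest value. The means were 19.7 ± 0.556 and 17.6 ± 2.69 FPKM (log2 difference -0.18, 95% interval -0.40 to 0.04, limma adjusted p = 0.182). Among high fat diet fed mice the order of Ifi27 was that of the choroid plexus marker sums, 23.5, 29.5, 80.1 and 955.3 FPKM in mice 2, 3, 1 and 4. Among normal mice it was not, with sums of 348.2, 576, 674.7 and 738.2 FPKM in mice 4, 2, 1 and 3 beside Ifi27 at 20, 18.9, 20.1 and 19.9 FPKM. Ttr, the most abundant of these markers, was at 920.7 FPKM in mouse 4 and at 18.6 to 73.4 FPKM in the other high fat diet fed mice. With choroid plexus markers as a covariate Ifi27 differed by 0.02 (adjusted p = 0.921), and without high fat diet fed mouse 4 by -0.26, which passed (adjusted p = 0.0450, limma).

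**Figure D3:**
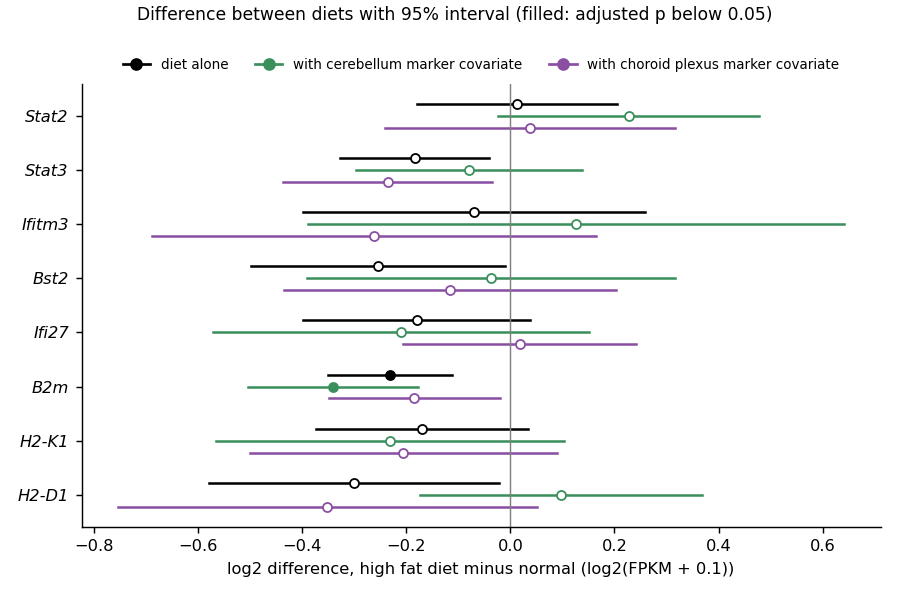
Log2 difference of each member, high fat diet minus normal on the scale log2(FPKM + 0.1), with its 95% interval, for the fit with diet alone (black), with cerebellum markers (green) and with choroid plexus markers (purple) as a covariate; filled points have an adjusted p below 0.05. B2m lies left of 0 in all 3 fits and is filled in the first 2 (-0.23 and -0.34), and H2-D1 moves from -0.30 to 0.10 with cerebellum markers.

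In order of level, B2m was highest in both diets, above 93.2% of the genes tested. In normal mice H2-D1 and Ifi27 followed with overlapping ranges, then H2-K1 and Stat3, whose ranges also overlapped, then Ifitm3, and last Stat2 and Bst2, which overlapped. In high fat diet fed mice Ifi27 and H2-D1 overlapped, as did H2-K1 with Stat3 and Stat3 with Ifitm3, while Stat2 was above Bst2 in every mouse. The median coefficient of variation of the members was 12.3% among normal mice and 7.44% among high fat diet fed mice. It was larger on the high fat diet in Ifi27 (2.82% and 15.3%), Ifitm3 (14.4% and 19.5%) and Stat3 (5.45% and 6.43%), and smaller in the other members. Whether this contrast is particular to the members was not tested. The genes whose centered profile over the 8 mice was closest to that of B2m, among 117 genes compared, were Ifngr1, Canx and Tbk1, with root mean square log2 differences of 0.0778, 0.0814 and 0.0977.

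Around the members, 182 other genes of interferon signaling and MHC were listed by role, and 110 had values. The 72 without values included all listed Oas genes, Mx1, Mx2, Rsad2, Irf7, Usp18, Cxcl10 and Tap1. Shares and medians below therefore cover only part of the lists. Of these, 20 passed the test, 10 higher and 10 lower on the high fat diet, a share of 18.2% against 33.1% of all genes tested. The median log2 difference was -0.04, and 61 of 110 were lower by sign. A change over 50% was present in 2, Isg15 and Trim25, and both were lower. Of the 20 calls, 9 were kept in each of the 8 fits that left out 1 mouse, those of Calr, Canx, Gbp7, H2-T22, Irf2bp1, Pias1, Psmb10, Ptpn11 and Socs7. With cerebellum markers as a covariate 2 genes passed, H2-T22 and Psme1, the second named here after its values were seen. With choroid plexus markers 1 passed, H2-T22. Without both normal mice highest in cerebellum markers 11 passed, 9 of them among the 20. With cerebellum markers the share was 1.82% of the 110 genes, against 6.49% of all genes tested. The same shares were 0.909% and 7.28% with choroid plexus markers, and 10% and 19.6% without those mice.

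**Figure D4:**
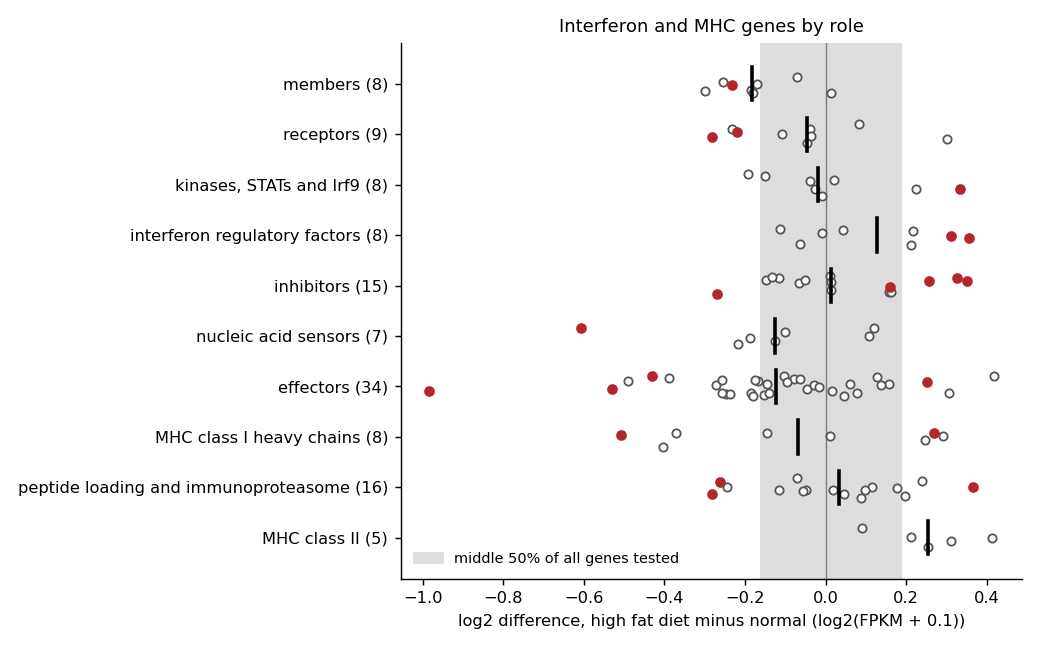
Log2 difference, high fat diet minus normal on the scale log2(FPKM + 0.1), of the 8 members and of 110 related genes by role, the number of genes in parentheses; each point is a gene, filled red when its adjusted p was below 0.05, black bars are medians and the gray band holds the middle 50% of all genes tested. Filled points lie on both sides of 0, 10 higher and 10 lower outside the members, and the member median is -0.18.

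Receptors came to 9 genes with values, of which 2 fell and none rose (median log2 difference -0.05). That share of 22.2% was below the 33.1% of all genes tested, of which 31.9% had no overlap between diets. Ifngr1, the ligand-binding chain of the interferon gamma receptor, was at 7.9 to 9.0 FPKM in normal mice and 6.5 to 7.8 FPKM in high fat diet fed mice, without overlap, and fell with a log2 difference of -0.28 (adjusted p = 0.0178, limma). Il6st, the gp130 chain through which interleukin 6 family cytokines reach Stat3, fell from 23.2 ± 2.22 to 19.8 ± 0.780 FPKM (-0.22, adjusted p = 0.0378). The call of Ifngr1 was lost without normal mouse 2 or high fat diet fed mouse 2 (adjusted p up to 0.0542). That of Il6st was kept without normal mouse 1 or normal mouse 4 and lost without any other mouse (up to 0.0993).

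Among kinases, STATs and Irf9, 8 genes had values and 1 rose, a share of 12.5% against 33.1% of all genes tested. The gene that rose was Stat6, the STAT of interleukin 4 and 13 signaling, from 3.3 ± 0.231 to 4.2 ± 0.510 FPKM (log2 difference 0.33, limma adjusted p = 0.0337). Its call was lost in 5 of the 8 fits without 1 mouse, those without normal mice 2 and 3 or high fat diet fed mice 1, 2 and 3 (adjusted p up to 0.0844). Jak1, the most abundant kinase of the list, was at 41.0 ± 0.842 and 39.9 ± 0.294 FPKM (-0.04, adjusted p = 0.425).

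Interferon regulatory factors and their binding proteins held 8 genes with values, of which 2 rose and none fell (median 0.13). That share of 25% was below the 33.1% of all genes tested, of which 31.9% had no overlap between diets. Irf2bp1, a corepressor that binds Irf2, rose from 12.02 ± 0.310 to 15.5 ± 2.02 FPKM without overlap (log2 difference 0.36, limma adjusted p = 0.0123). Irf2, which competes with Irf1 for interferon response sites, rose from 5.18 ± 0.718 to 6.43 ± 0.574 FPKM (0.31, adjusted p = 0.0479), and its call was kept only without normal mouse 1 or high fat diet fed mouse 1 (adjusted p up to 0.127 without others). Irf2bpl was at 16.9 ± 1.61 and 19.7 ± 2.53 FPKM (0.22, adjusted p = 0.116).

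Inhibitors of the pathway held 15 genes with values, and 4 of them rose while 1 fell (median 0.01). That share of 33.3% was near the 33.1% of all genes tested. Pias1, a SUMO ligase that restrains STAT proteins, was at 10.5 to 12.2 FPKM in normal mice and 13.4 to 14.3 FPKM in high fat diet fed mice and rose (log2 difference 0.33, limma adjusted p = 0.00347). Pias3, its relative that restrains Stat3, rose from 3.78 ± 0.377 to 4.85 ± 0.532 FPKM (0.35, adjusted p = 0.0265). Socs7, of the family of suppressors of cytokine signaling, rose from 21.3 ± 1.03 to 25.4 ± 0.613 FPKM (0.26, adjusted p = 0.00419). The fourth was Ptpn1, a phosphatase of JAK kinases (0.16, adjusted p = 0.0350). Ptpn11, the SHP2 phosphatase, which also transmits growth factor signals, fell from 42.1 ± 2.69 to 34.9 ± 1.60 FPKM (-0.27, adjusted p = 0.00688). Pias3 lost its call in 6 fits, passing only without normal mouse 4 or high fat diet fed mouse 4 (adjusted p up to 0.0695 otherwise), and Ptpn1 in 7, passing only without normal mouse 1 (up to 0.0885 otherwise).

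Nucleic acid sensors and their adaptors had 7 genes with values, of which 1 fell (median -0.13). That share of 14.3% was below the 33.1% of all genes tested. The gene that fell was Trim25, the ubiquitin ligase that activates the RNA sensor RIG-I. Its levels were 1.3 to 1.8 FPKM in normal mice and 0.8 to 1.1 FPKM in high fat diet fed mice (log2 difference -0.61, limma adjusted p = 0.0184, and 0.0537 without normal mouse 2). Tbk1, the kinase below several sensors, was at 16.2 ± 0.580 and 15.1 ± 0.661 FPKM (-0.10, adjusted p = 0.152).

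Effectors, the products of interferon-stimulated genes, were the longest list, with 34 of 69 having values. Of these, 3 fell and 1 rose (median -0.12), a share of 11.8% against 33.1% of all genes tested. Isg15, a ubiquitin-like modifier, was at 2.0, 1.1, 1.6 and 1.4 FPKM in normal mice and at 0.4, 0.9, 1.3 and 0.5 FPKM in high fat diet fed mice. The diets overlapped, since high fat diet fed mouse 3 was above normal mouse 2, and the log2 difference of -0.98 (standard error 0.327) had an adjusted p of 0.0439 (limma). It was lost in 7 of 8 fits without 1 mouse, the exception being that without high fat diet fed mouse 3 (adjusted p 0.0156 to 0.103). Eif2ak2, the RNA-activated kinase PKR, fell from 2.08 ± 0.359 to 1.4 ± 0.163 FPKM (-0.53, adjusted p = 0.0222), which was lost without normal mouse 3 or high fat diet fed mice 2 or 4 (up to 0.0551). Gbp7, a guanylate-binding protein, fell from 2.23 ± 0.126 to 1.63 ± 0.126 FPKM (-0.43, adjusted p = 0.0132). Values are rounded to 0.1 FPKM, which is coarse at these levels. Shisa5, a protein of the endoplasmic reticulum linked to cell death, rose from 32.7 ± 1.79 to 39.1 ± 3.62 FPKM (0.25, adjusted p = 0.0223), which was lost without normal mice 2 or 3 or high fat diet fed mouse 1 (up to 0.0625). Ly6e, the most abundant effector, was at 91.2 ± 11.2 and 100.1 ± 10.5 FPKM (0.14, adjusted p = 0.302), and its sign turned with cerebellum markers as a covariate and without both normal mice highest in them.

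Other class I heavy chains had 8 genes with values, of which 1 rose and 1 fell (median -0.07). That share of 25% was below the 33.1% of all genes tested. H2-T22, a nonclassical chain seen by gamma delta T cells, was at 8.2 to 8.9 FPKM in normal mice and 9.8 to 10.6 FPKM in high fat diet fed mice, and it rose (log2 difference 0.27, limma adjusted p = 0.00536). It passed in 21 of 22 alternatives, the exception being that with endothelial markers as a covariate (adjusted p = 0.0602). H2-T24 fell from 1.33 ± 0.171 to 0.9 ± 0.0816 FPKM (-0.51, adjusted p = 0.0306), and its call was kept only without normal mouse 3 or high fat diet fed mouse 3 (up to 0.0742 without others). H2-T23, which encodes Qa-1, was at 10.1 ± 1.10 and 12.1 ± 2.22 FPKM (0.25, adjusted p = 0.151). Near-identical copies occur in this family, and the sources used here do not say how reads were divided among them.

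Peptide loading and the immunoproteasome had 16 genes with values, of which 1 rose and 2 fell (median 0.03). That share of 18.8% was below the 33.1% of all genes tested, of which 31.9% had no overlap between diets. Psmb10, a catalytic subunit of the immunoproteasome, was at 14.7 to 17.7 FPKM in normal mice and 20 to 22 FPKM in high fat diet fed mice and rose (log2 difference 0.37, limma adjusted p = 0.00342). Calr and Canx encode calreticulin and calnexin, chaperones of the endoplasmic reticulum that fold class I chains and many other glycoproteins. Calr fell from 183.3 ± 15.3 to 150.4 ± 7.20 FPKM (-0.28, adjusted p = 0.00960) and Canx from 149.7 ± 4.83 to 124.9 ± 5.22 FPKM (-0.26, adjusted p = 0.00336), both without overlap. Psme1, a subunit of the proteasome activator PA28, did not pass with diet alone (0.24, adjusted p = 0.0519) and was at 0.46 with cerebellum markers as a covariate (adjusted p = 0.0363). MHC class II had 5 genes with values, and none passed limma with or without adjustment, although all 5 were higher by sign (median 0.25). H2-DMa, which exchanges peptides on class II, was at 5.43 ± 1.20 and 5.73 ± 0.862 FPKM (0.09, adjusted p = 0.678), and its sign turned in 4 alternatives.

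Markers of other cells that a cortex sample could hold were read in the same way. Leukocyte and border macrophage markers had values for 3 of 15 genes, with sums of 3.3 to 6.3 FPKM in normal mice and 3.4 to 5.3 FPKM in high fat diet fed mice, and none passed limma, 1 having an unadjusted p under 0.05. Pericyte and smooth muscle markers (8 of 8) summed to 84.1 to 96.1 and 79.1 to 85.6 FPKM, with 1 lower by the test. Meningeal fibroblast markers (9 of 9) summed to 38.6 to 52.4 and 32.8 to 51.9 FPKM, with 4 lower. Blood markers (5 of 5) summed to 239.2 to 479.7 and 199.1 to 247.4 FPKM, and all 5 fell by the test. Astrocyte markers (10 of 10) summed to 1256.7 to 1415.3 and 1250.4 to 1327.3 FPKM, with 3 higher and 3 lower. Shares called were 12.5% for pericytes and smooth muscle, 44.4% for meningeal fibroblasts, 100% for blood and 60% for astrocytes. Over all genes tested the share was 33.1%, with 15.3% lower and 17.7% higher. The part of these cells in the differences of the members was not tested beyond the endothelial, microglia, cerebellum and choroid plexus covariates.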

How the data were processed

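Cortex RNA of 8 mice was analysed, grouped by the diet label, 4 to a diet. The deposited FPKM values were made by the authors with Cuffnorm on GENCODE M17 (GRCm38.p6), after reads were checked (FastQC), trimmed (Trimmomatic) and aligned to mm10 (STAR). Tool versions and the use of strand in counting were not given in the sources used here. Results of Salmon and edgeR that the authors also produced were not used. The values are normalized for length and depth and rounded to 0.1, so single reads cannot be resolved and the depth per mouse is unknown.

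From there, log2(FPKM + 0.1) was compared between diets with limma 3.58.1 in R 4.3.3 (variance trend, two-sided, Benjamini-Hochberg adjustment over 13982 genes that averaged at least 1 FPKM and were above 0 in every mouse). A gene rose or fell when its adjusted p was below 0.05, and a change over 50% was counted beside it. Fold changes on this scale understate those of low genes. Python 3.11.15 with pandas 2.3.3, numpy 2.4.6 and matplotlib 3.10.9 made the tables and figures. On simulated data over 13982 genes, 58 of 100 genes with a log2 change of 0.5 and 92 of 100 with a change of 1 were called, as were 7 of 13782 unchanged genes. Noise was drawn separately for each gene, so differences shared by many genes were not simulated. Changes as small as those of the members were not simulated either. These counts therefore give no error rate for the calls in the mice.

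Members, gene lists and markers were chosen with earlier results of these data known. Named were the members, up to 4 passing genes of each list with the largest change, the most abundant gene of each list and of each marker list, and the genes closest to B2m; others are named as chosen after their values were seen, as were the letters AAGTGAAA and the fourth inhibitor, Ptpn1. Gene models came from GENCODE M21 on GRCm38, later than the M17 of the authors, and promoters from RefSeq. Alternatives were other added constants, filters, scalings and variance models, the replicate number as a block, marker lists as covariates, and each mouse left out. The replicate numbers did not pair the mice. Values of 1 listed gene are left out of the text.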

Additional observations from a re-analysis of the deposited data

Results flagged for a closer look

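In groups of 4 mice, the highest or lowest value stood apart from the other 3 by a share of the whole range above the 95% critical value of Dixon in 5 of 66 comparisons, over 33 genes in each diet. Chance flags about 1 in 20 such groups. Among the members, Bst2 was at 3.6 FPKM in high fat diet fed mouse 4 (0.833 of the range) and Ifi27 was lowest in normal mouse 2 at 18.9 FPKM (0.833), which lies within a narrow range of 18.9 to 20.1 FPKM. Among related genes, Ifngr1 was at 7.8 FPKM (0.846) and H2-DMa at 7 FPKM (0.842) in high fat diet fed mouse 4, and Calr was at 206.1 FPKM in normal mouse 2 (0.865). High fat diet fed mouse 4 was also the one with the highest choroid plexus marker sum, 955.3 FPKM.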

How the results depend on the processing

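B2m kept its sign in 22 of 22 alternatives and its call in 20, between -0.34 and -0.18 on the log2 scale. It did not pass with endothelial markers (-0.19, adjusted p = 0.0989) or choroid plexus markers (-0.18, adjusted p = 0.142) as a covariate. The choroid plexus covariate and the fit without both normal mice highest in cerebellum markers were added after seeing the data. Without 1 mouse at a time the log2 difference ranged from -0.26 to -0.19 for B2m, -0.03 to 0.07 for Stat2, -0.22 to -0.16 for Stat3, -0.17 to 0.05 for Ifitm3, -0.31 to -0.17 for Bst2, -0.26 to -0.09 for Ifi27, -0.23 to -0.08 for H2-K1 and -0.41 to -0.19 for H2-D1. Stat3 passed with a mean of at least 5 FPKM (-0.18), median-ratio rescaling (-0.19) and quantile normalization (-0.18), and H2-D1 with microglia markers (-0.25). Signs turned for Stat2 with quantile normalization (0.00 after rounding) and endothelial markers (-0.02), for Ifitm3 with endothelial markers (0.14), cerebellum markers (0.13) and without both normal mice (0.10), for Ifi27 with choroid plexus markers (0.02) and for H2-D1 with cerebellum markers (0.10). Among related genes, Ly6e turned to -0.13 with cerebellum markers and -0.01 without both normal mice, and H2-DMa to -0.36 and -0.15 in the same fits, and the latter ranged from -0.01 (without high fat diet fed mouse 4) over 0.00 (without normal mouse 3) to 0.22 when 1 mouse was left out. Members called numbered 2 with a mean of at least 5 FPKM (where Stat2 and Bst2 are not tested), median-ratio rescaling, quantile normalization or microglia markers, 0 by limma with endothelial or choroid plexus markers (2 with an unadjusted p under 0.05 in each), and 1 to 3 without 1 mouse (3 without normal mouse 1, 2 without high fat diet fed mouse 1 or 4). Related genes called numbered 2 with cerebellum, 7 with endothelial and 1 with choroid plexus markers, 11 without both normal mice and 10 to 19 without 1 mouse. Over the whole table the counts were 908, 2087, 1018 and 2743 in those 4 fits, and 3295 to 4619 without 1 mouse. The cause of these shifts was not tested. With the replicate number as a replicate block B2m was at -0.23 (adjusted p = 0.039), and 1 member, 14 related genes and 3390 genes in all passed; the block ended no call of a member. The numbers did not pair the mice: mice of the same number had correlations of -0.038, -0.028, -0.109 and -0.072 in their deviations, and none correlated best with its own number. The depth is unknown, and 4 mice a diet together with rounding to 0.1 FPKM limit the precision of genes near 1 FPKM.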
